A study of Drosophila melanogaster with 23 samples.

Results

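The vacuolar ATPase (V-ATPase) subunit genes of Drosophila melanogaster were followed across 8 groups of fly brain cells and eyes. The members were the genes whose current RefSeq symbol begins with Vha and that had an array probe set assigned to them alone. Of 33 such genes, 31 met this rule, out of 11982 genes measured on the arrays. Vha68-1 and Vha68-2, which encode forms of the catalytic A subunit, had no probe set of their own and were not analysed here. Where a gene had several probe sets, the brightest on average across the 23 arrays stood for it.

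The V-ATPase is a rotary proton pump. Its cytoplasmic V1 sector hydrolyses ATP, and its membrane V0 sector carries protons into lysosomes, endosomes and secretory and synaptic vesicles. In neurons the resulting proton gradient drives neurotransmitter uptake into synaptic vesicles, and in lysosomes it keeps the lumen acidic. Many subunits of the fly pump are encoded by several genes, and Vha100-1 is known as the a subunit gene needed at fly synapses.

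The groups were larval Elav cells (Elav-Gal4;UAS-GFP), larval Pdf cells (Pdf-Gal4;UAS-GFP), larval Tim cells (Tim-Gal4;UAS-YFP), larval Tim cells with Pdf-Gal80 (Tim-Gal4;Pdf-Gal80;UAS-YFP), adult Elav cells, adult large Pdf cells, adult small Pdf cells and adult eyes. The adult sorted cells came from the same Elav and Pdf lines as the larval ones. All sorted groups, the Elav references included, therefore carried a Gal4 driver and a fluorescent reporter. Elav-Gal4 marks neurons in general, Pdf-Gal4 the clock neurons that make the neuropeptide PDF, and Tim-Gal4 cells that express the clock gene timeless. Pdf-Gal80 blocks Gal4 in the PDF neurons. The eyes were dissected whole, and their label names neither a line nor a sorted cell. Ages in days are not given in the labels. Each group had 3 arrays except adult small Pdf cells, which had 2. Nothing in the labels ties a replicate to its own set of animals beyond the words biological replicate, so the p-values cover the spread seen between these arrays.

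Values are the authors' log2 expression values, and a value of 5 was used as the limit of detection. A gene was tested where it lay above 5 on at least 2 arrays. A difference was called at a limma adjusted p under 0.05, over 7670 genes, together with a fold of 2 or more. A fold written as "at least" was computed with values under 5 raised to 5, because the lower group had 1 or more arrays under that limit.

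The sorted cells were checked against marker lists, each given as a mean log2 value per array over its measured genes. The neuron list (6 of 8 genes measured) stood at 4.92 to 6.69 in larval Elav cells, against 11.4 to 12.03 in adult Elav cells. The list for dividing cells and neuroblasts (7 of 8 measured) stood at 11.01 to 11.96 in larval Elav cells and 2.67 to 3.24 in adult Elav cells. Among the neuron markers, elav was at 11.56 ± 1.24 in larval and 12.88 ± 0.14 in adult Elav cells (SD, n = 3). For cac the values were 7.85 ± 1.32 and 11.55 ± 0.35. The means of nSyb, brp, Snap25 and Rim lay under 5 in larval Elav cells. The larval Elav reference was thus low in these 4 neuron markers, though not in elav, and high in markers of dividing cells. The 3 larval Pdf arrays stood at 8.64, 7.78 and 3.52 on the hemocyte list. The 3 arrays of Tim cells with Pdf-Gal80 stood at 9.16, 9.92 and 7.42 on the neuron list.

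Of the 31 members, 15 were widely expressed, with a mean above 5 in all 8 groups. Another 4 were narrowly expressed, above 5 in some groups only, and 12 were not detected in any group mean. In the V1 sector 7 were wide, 1 narrow and 3 not detected, and in the V0 sector, with its accessory proteins, 8 were wide, 3 narrow and 9 not detected. Each subunit position with a measured gene other than the A subunit had at least 1 widely expressed gene. The class counts changed little with the limit, at 16, 3 and 12 with a limit of 4 and 14, 4 and 13 with a limit of 6. When every array of a group had to lie above 5 they were 13, 5 and 13. Of the 31 genes, 19 passed the filter and were tested. Because a gene that passes through a single bright group must differ between groups, counts over these 19 genes describe them and are not evidence on the 31.

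**Figure D1:**
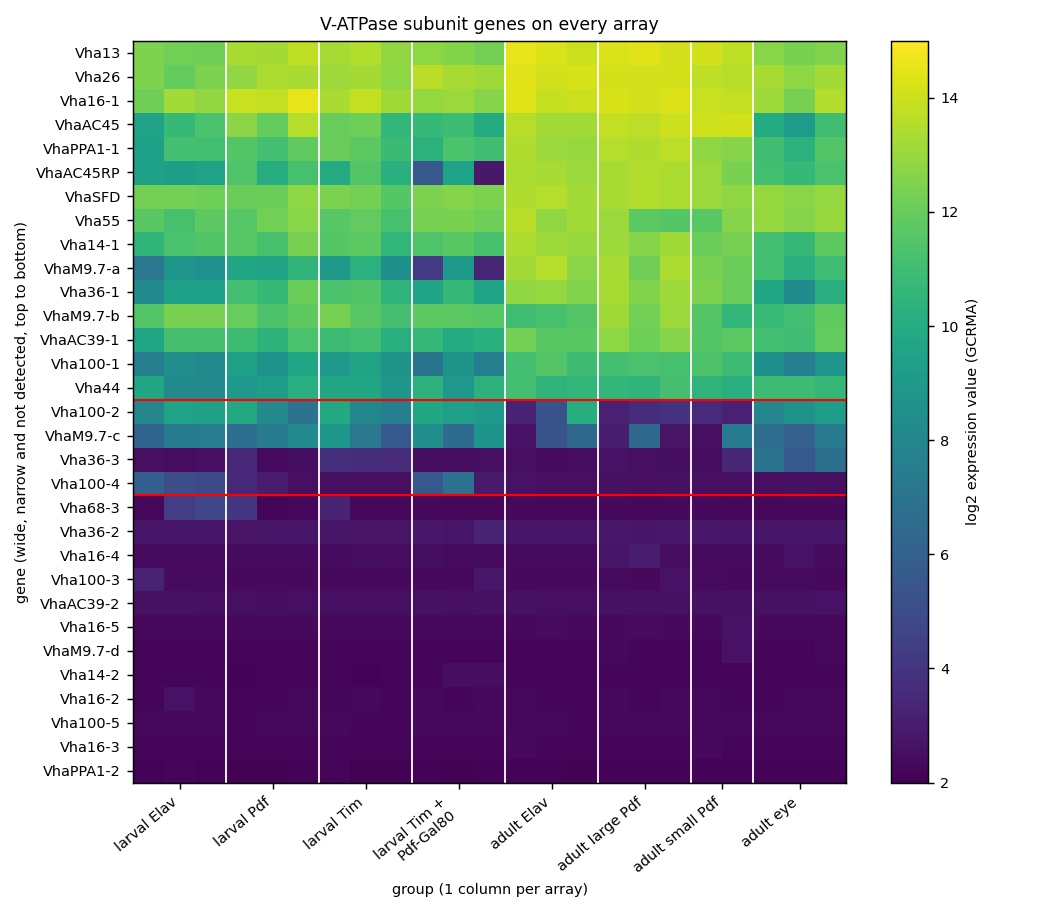
Log2 expression value (colour) of the 31 V-ATPase subunit genes (rows) on each of the 23 arrays (columns, divided by white lines into the 8 groups). Red lines divide the 15 widely expressed, 4 narrowly expressed and 12 undetected genes. Vha100-1 is brighter in the 3 adult sorted groups than in the other 5. VhaM9.7-b has its highest group mean in large Pdf cells, whose arrays overlap those of larval Elav and larval Tim cells.

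The undetected genes were Vha68-3 (A subunit), Vha36-2 (D) and Vha14-2 (F) of V1, and Vha100-3 and Vha100-5 (a), Vha16-2, Vha16-3, Vha16-4 and Vha16-5 (c), VhaPPA1-2 (c''), VhaAC39-2 (d) and VhaM9.7-d (e) of V0. Their array values ran from 2.08 to 4.76. The highest was that of Vha68-3, whose group mean was 3.81 ± 1.32 in larval Elav cells and 2.87 ± 1.03 in larval Pdf cells (SD, n = 3). Vha68-3 was the only A subunit gene measured, so the arrays gave no level for the A subunit genes Vha68-1 and Vha68-2. Vha100-3 reached 3.28 on 1 array, and the other 10 genes stayed at or below 3.24. By gene order in the RefSeq annotation of Release 6 plus ISO1 MT, Vha16-3 neighbours Vha16-2 with 0 protein-coding genes between them, and both were undetected. VhaPPA1-2 lies 1 gene from VhaPPA1-1, of which the latter was wide and the former undetected. A probe set that reads at background shows only that no signal was found, which can also come from the probes.

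The c subunit, the main part of the proton-translocating ring, had a single detected gene. Among 5 genes for it, Vha16-1 was wide, with group means from 12.75 ± 0.51 in larval Elav cells to 14.22 ± 0.10 in large Pdf cells (SD, n = 3). The other 4 had group means between 2.20 and 2.73. For the d subunit, which joins the ring to the central stalk, VhaAC39-1 was wide at 10.29 to 12.51, and VhaAC39-2 stayed at 2.51 to 2.59. For the V1 stalk subunit D, Vha36-1 was wide, Vha36-3 narrow and Vha36-2 undetected.

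The a subunit, the large V0 protein that lines the proton path, had 3 detected genes that differed in where they were high. Vha100-1 was at 11.13, 11.54 and 10.96 in adult Elav cells, at 11.14, 11.26 and 11.24 in large Pdf cells and at 11.38 and 10.89 in small Pdf cells. In larvae it was at 7.56, 8.42 and 8.12 in Elav cells, 9.39, 8.62 and 9.62 in Pdf cells, 9.04, 9.60 and 8.71 in Tim cells and 7.06, 8.74 and 7.60 in Tim cells with Pdf-Gal80. In the eye it was at 8.51, 7.62 and 8.80. All 8 arrays of adult sorted cells lay above all 15 other arrays. The 3 adult sorted means, from 11.13 to 11.21, lay within the spread of their arrays.

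Vha100-2 ran the other way in the sorted PDF cells. It was at 9.88, 8.14 and 6.95 in larval Pdf cells but at 3.19, 3.71 and 3.90 in adult large Pdf cells and 3.58 and 3.17 in adult small Pdf cells, under the limit of detection on all 5 adult Pdf arrays. In the other larval groups it was at 7.95, 9.52 and 9.43 in Elav cells, 9.88, 8.06 and 7.61 in Tim cells and 9.81, 9.36 and 8.96 with Pdf-Gal80. The eye was at 7.98, 8.62 and 9.28. Adult Elav cells stood at 3.30, 5.29 and 10.12, a spread wider than any difference from them, and Vha100-2 was called in no comparison.

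Larval and adult Pdf cells did not overlap for Vha100-2, but that difference is given as levels, since the comparison was not among those tested. Large Pdf cells were not called against adult Elav cells (adjusted p = 0.179). The Vha100-1 and Vha100-2 values came from probe sets whose suffix marks possible sharing between transcripts, also of related genes. Those of Vha26, Vha44, Vha55 and VhaAC45 had the same suffix.

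Vha100-4, the neighbour of Vha100-2 with 0 protein-coding genes between them, was detected in larval Elav cells, at 5.95, 5.12 and 4.87. In Tim cells with Pdf-Gal80 it was at 5.52, 6.85 and 2.96. Larval Pdf cells were at 3.48, 2.97 and 2.54, and the arrays of the remaining 5 groups lay between 2.52 and 2.61. The gene sat close to the limit of detection even where it was highest. Its lower calls, described with each comparison, were therefore bounded at small folds. Vha100-4 passed the filter through 2 larval Elav arrays and 2 arrays of Tim cells with Pdf-Gal80 alone. Its lower calls against those groups are therefore descriptions, given without p. This holds also where they enter a count of calls beside the share of all genes.

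**Figure D2:**
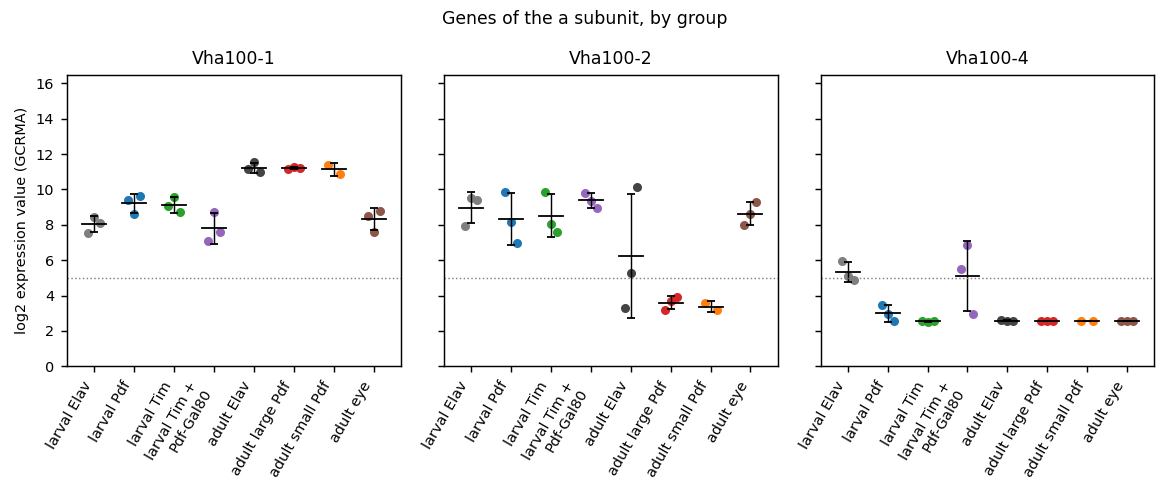
Log2 expression value of the 3 detected a subunit genes in each group, with 1 point per array, a bar at the mean and whiskers of 1 SD; the dotted line is the limit of detection at 5. Vha100-1 is highest in the adult sorted cells, and Vha100-2 lies under 5 on all 5 adult Pdf arrays.

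Adult and larval Elav cells were compared to ask how the neurons in general differed between the stages. Of the 19 tested genes, 14 were higher in adult Elav cells and 1 was lower, where 20.3% of all tested genes were called higher and 23.4% lower. All 14 were widely expressed, and VhaM9.7-b was the wide gene not called. The median difference of the 19 was 1.95 on the log2 scale, against -0.044 over all tested genes. The 3 larval and 3 adult arrays did not overlap for any of the 14. These genes were picked by their difference and the share over all genes was not computed, so this is a description. In samples of mixed cells, fewer cells of a type and less RNA per cell cannot be told apart.

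VhaM9.7-a, a small e subunit of V0, had the widest range of the 15. It was at 7.14, 8.84 and 8.56 in larval Elav cells and at 13.22, 13.54 and 12.71 in adult Elav cells. It was 31.6-fold higher in the adult cells (log2 difference 4.98, SE 0.95, adjusted p = 2.60e-04).

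VhaAC45RP, which encodes a relative of the accessory protein AC45, was at 9.45, 9.28 and 9.51 in larval and 13.42, 13.29 and 13.04 in adult Elav cells, 14.3-fold higher (3.84, SE 0.98, adjusted p = 0.00343). The arrays within each stage lay close together. VhaAC45 itself, an accessory V0 protein, was at 9.47, 10.73 and 11.32 in larval and 13.61, 13.21 and 13.22 in adult Elav cells, 7.15-fold higher (adjusted p = 3.43e-04).

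The stalk subunit gene Vha36-1 was at 8.15, 9.34 and 9.42 in larval and 12.83, 12.94 and 12.52 in adult Elav cells, 13.8-fold higher (log2 difference 3.79, SE 0.52, adjusted p = 7.96e-06). Vha100-1 was 9.05-fold higher (3.18, SE 0.45, adjusted p = 1.12e-05). VhaPPA1-1, the c'' subunit of the ring, was at 9.37, 11.13 and 11.08 against 13.46, 13.06 and 13.00, 6.25-fold higher (adjusted p = 1.28e-04). Each of these had its lowest larval value on replicate 1.

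The remaining rises were smaller. Vha14-1 (F) was 4.29-fold higher, Vha44 (C) 3.95-fold, Vha13 (G) 3.90-fold, Vha26 (E) 3.87-fold and Vha55 (B, the non-catalytic ATP-binding subunit) 3.21-fold. Vha16-1 was 2.49-fold, VhaSFD (H) 2.26-fold and VhaAC39-1 2.26-fold higher. The VhaAC39-1 call (adjusted p = 0.0368) was lost without larval Elav replicate 1 (adjusted p = 0.222) or without any 1 of the 3 adult Elav arrays (adjusted p from 0.0520 to 0.133). VhaM9.7-b, the other wide e subunit gene, was at 12.07 ± 0.47 in larval and 11.24 ± 0.27 in adult Elav cells (log2 difference -0.83, adjusted p = 0.119).

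Vha100-4 was the lower call, at least 1.28-fold, and this was lost when values under 5 were raised to 5. Beside these values, all 6 neuron markers were called higher and all 7 markers of dividing cells lower in adult Elav cells. The part of the cell makeup of the larval reference in the rises was not tested.

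**Figure D3:**
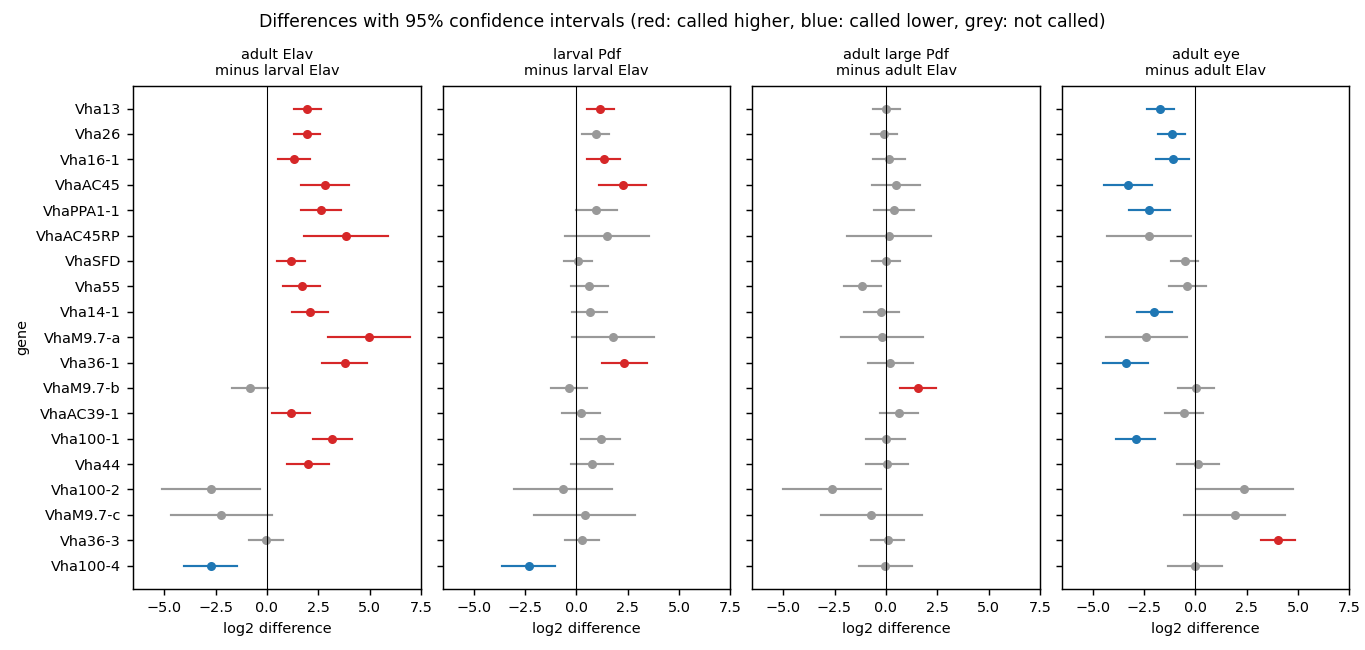
Log2 difference of the 19 tested subunit genes in 4 comparisons, with a point for the estimate and a line for its 95% confidence interval. Red points were called higher, blue lower and grey not called; 14 points are red for adult against larval Elav cells and 8 are blue for the eye against adult Elav cells.

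In Pdf cells, where larval and adult cells came from the same driver line, the stages were set side by side without a test. There the glial list stood at 6.48 to 7.64 in larval, 3.37 to 4.22 in large and 3.71 to 4.06 in small Pdf cells. The list for dividing cells stood at 6.67 to 8.54 in larval Pdf cells and lower on every adult Pdf array. The hemocyte list stood at 8.64, 7.78 and 3.52 on the larval arrays and under 5 on the adult Pdf arrays. The neuron list stood at 9.82 to 11.22 in larval and 10.76 to 11.54 in adult Pdf cells. The part of cell makeup in the differences below was not tested. All arrays of large Pdf cells lay above all larval Pdf arrays for 13 of the 19 genes, below them for 2 (Vha100-2 and VhaM9.7-c) and overlapped for 4, where 19.4% of all tested genes lay above and 18.9% below in the same way. The median difference of the 19 was 1.09, against -0.075 over all tested genes. For small Pdf cells 10 lay above, 1 below and 8 overlapped, where 21.4% of all tested genes lay above and 20.3% below, with medians of 0.49 and -0.008. Vha100-1 was 2.00 and 1.92 log2 units higher in large and small than in larval Pdf cells. VhaPPA1-1 was 2.07 and 1.25 higher, and VhaM9.7-a 3.01 and 2.27 higher. Vha55 and, through the probe set used, Vha16-1 overlapped between larval Pdf cells and both adult Pdf groups. The other probe set of Vha16-1, looked at after the data were seen, differed more between the stages. It was at 10.43 ± 0.54 in larval (SD, n = 3), 14.10 ± 0.21 in large (n = 3) and 11.11 ± 0.27 in small Pdf cells (n = 2).

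The comparison of larval Pdf with larval Elav cells asked which subunits were higher in PDF neurons. Here 4 of the 19 genes were higher and 1 lower, where 13.3% of all tested genes were called higher and 12.8% lower. Vha36-1 was at 11.14, 10.70 and 12.09 in Pdf cells, 5.06-fold higher (log2 difference 2.34, SE 0.52, adjusted p = 0.00271). VhaAC45 was at 12.74, 11.94 and 13.57, 4.74-fold higher (2.25, SE 0.56, adjusted p = 0.00570). Vha16-1 was 2.51-fold higher (adjusted p = 0.0139) and Vha13 2.23-fold higher (adjusted p = 0.0104). In these 4 genes, already picked by their difference, no Pdf array overlapped an Elav array, which is a description without the share over all genes.

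Vha100-4 was lower by at least 1.28-fold, a call lost with values under 5 raised to 5. VhaAC45 and Vha16-1 were not called in a fit of only the groups compared. Vha16-1 was also not called without larval Elav replicate 1 (adjusted p = 0.0593) or larval Pdf replicate 3 (adjusted p = 0.0672). Its other probe set, chosen for comparison after the data were seen, gave a difference of 0.68 that was not called (adjusted p = 0.311). Beside these values, 5 of 6 neuron markers, 4 of 6 tested glial markers and 4 of 7 hemocyte markers were called higher in larval Pdf cells, and 6 of 7 markers of dividing cells lower. Their part in the subunit differences was not tested.

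Larval Tim cells had 2 subunit genes higher and 1 lower than larval Elav cells, where 13.8% of all tested genes were called higher and 9.63% lower. Vha36-1 was at 11.32, 11.49 and 10.47, 4.35-fold higher (log2 difference 2.12, SE 0.52, adjusted p = 0.00586). Vha100-4 was lower by at least 1.28-fold, and again not called with values under 5 raised to 5. Vha36-3 was called higher (adjusted p = 0.0328), but all its values in both groups lay under 5, so no fold is given. That call was lost on leaving out any 1 of the 6 arrays. With array weights, 8 genes were higher and 1 lower. Here too 5 of 6 neuron markers and 5 of 6 tested glial markers were called higher and 6 of 7 markers of dividing cells lower, and their part was not tested.

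Tim cells with Pdf-Gal80, the timeless cells without the PDF neurons, had 1 subunit gene higher and 2 lower than larval Elav cells, where 14.7% and 25.4% of all tested genes were called. Vha26 (E) was at 13.63, 13.32 and 13.14, 2.11-fold higher (log2 difference 1.08, SE 0.31, adjusted p = 0.00948). VhaAC45RP was at 5.60, 9.55 and 2.87, lower by at least 6.48-fold (adjusted p = 0.00948). VhaM9.7-a was at 4.32, 9.01 and 3.36, lower by at least 3.59-fold (adjusted p = 0.0340). For both lower genes replicate 2 lay above the larval Elav values and replicates 1 and 3 lay far below them.

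The VhaAC45RP call was lost without Pdf-Gal80 replicate 3 (adjusted p = 0.0699), and that of VhaM9.7-a without Pdf-Gal80 replicate 1 (adjusted p = 0.147) or 3 (adjusted p = 0.219), or without larval Elav replicate 2 (adjusted p = 0.119) or 3 (adjusted p = 0.0954). VhaM9.7-a was also not called with values under 5 raised to 5 (adjusted p = 0.0780), with no filter (adjusted p = 0.0670) or with quantile normalisation (adjusted p = 0.0625). Vha26 was not called without larval Elav replicate 2 (adjusted p = 0.0540), and fell under the fold threshold without Pdf-Gal80 replicate 1, at a difference of 0.95. On replicates 1, 2 and 3 the neuron list stood at 9.16, 9.92 and 7.42. Of the markers, 3 of 6 for neurons and 1 of 6 tested for glia were called higher than in larval Elav cells, and 7 of 7 for dividing cells lower. The part of these in the subunit differences was not tested. Another round of quantile normalisation moved the median of all tested genes in this comparison from -0.226 to -0.045. It gave 3 higher and 1 lower subunit genes.

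**Figure D4:**
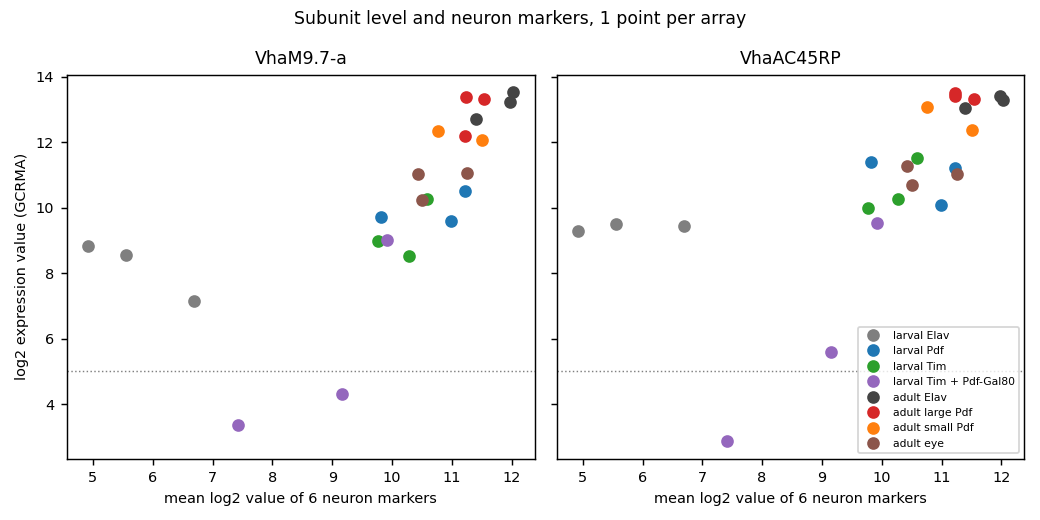
Log2 expression value of VhaM9.7-a and VhaAC45RP on each of the 23 arrays (y axis) against the mean log2 value of 6 neuron markers on that array (x axis), coloured by group. The arrays of Tim cells with Pdf-Gal80 at 9.16 and 7.42 on the x axis hold the lowest values of both genes. The larval Elav arrays lie lower on the x axis, at 4.92 to 6.69, with VhaM9.7-a at 7.14 to 8.84 and VhaAC45RP at 9.28 to 9.51.

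Larval Pdf cells were set against Tim cells with Pdf-Gal80 to contrast PDF neurons with other timeless cells. There 5 of the 19 genes were higher and 1 lower in Pdf cells, where 15.1% of all tested genes were called higher and 7.56% lower. VhaAC45RP, at 11.41, 10.08 and 11.22 in Pdf cells, was higher by at least 18.2-fold (adjusted p = 0.00145). VhaM9.7-a, at 9.73, 9.61 and 10.52, was higher by at least 12.3-fold (adjusted p = 0.00265). VhaAC45 was 4.56-fold higher (log2 difference 2.19, SE 0.56, adjusted p = 0.00828), with no overlap between groups.

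Vha100-1 was 2.66-fold (adjusted p = 0.0301) and Vha16-1 2.30-fold higher (adjusted p = 0.0273). The Vha100-1 groups overlapped, and its call was lost without larval Pdf replicate 1 (adjusted p = 0.0821) or 3 (adjusted p = 0.112) or Pdf-Gal80 replicate 1 (adjusted p = 0.146) or 3 (adjusted p = 0.0944). That of Vha16-1 was lost without larval Pdf replicate 3 (adjusted p = 0.117) or Pdf-Gal80 replicate 1 (adjusted p = 0.0554) or 3 (adjusted p = 0.100), and its other probe set gave -0.37 (adjusted p = 0.633). Vha100-4 was lower by at least 1.73-fold, a description by the filter, and was not called with values under 5 raised to 5. Its call was also lost without Pdf-Gal80 replicate 1 or 2 or larval Pdf replicate 3. The arrays of both groups also enter their comparisons with larval Elav cells. With a fit on these 2 groups alone each of the 6 calls was lost (adjusted p from 0.0517 to 0.220).

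The hemocyte list, at 8.64, 7.78 and 3.52 on the larval Pdf arrays, had 3 of 7 members called higher in Pdf cells. The neuron list had 3 of 6 higher and 1 lower, the list for dividing cells 5 of 7 higher and the glial list 2 of 6 tested higher and 1 lower. The part of these cells in the subunit differences was not tested.

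In adults VhaM9.7-b was higher in large Pdf cells than in Elav cells, and 0 subunit genes were lower. VhaM9.7-b was the gene called in large Pdf cells, where 3.40% of all tested genes were called higher and 5.66% lower. It was at 13.14, 12.22 and 13.04 in large Pdf cells, 11.00, 11.20 and 11.53 in adult Elav cells and 11.52 and 10.62 in small Pdf cells. Every large Pdf array lay above every Elav and small Pdf array. It was 2.95-fold higher than in Elav cells (log2 difference 1.56, SE 0.42, adjusted p = 0.0219).

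That call was lost without large Pdf replicate 1 (adjusted p = 0.0761) or 3 (adjusted p = 0.0742), or without adult Elav replicate 1 (adjusted p = 0.0881) or 2 (adjusted p = 0.0609). The median difference of the 19 genes between large Pdf and Elav cells was 0.022, against -0.073 over all tested genes. For Vha100-1 the 95% interval of the difference ran from -0.94 to 0.95.

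Against adult Elav cells, small Pdf cells had 0 of 19 subunit genes called by limma, where 3.57% of all tested genes were called higher and 5.18% lower. At an unadjusted p under 0.05 there were 2, Vha100-2 and Vha55, and the share of all genes at that threshold was not computed. Vha100-2 lay under 5 in small Pdf cells (3.17 to 3.58) and spread from 3.30 to 10.12 in adult Elav cells. The median difference of the 19 was -0.397, against -0.048 over all tested genes, and 3 of the 19 were above 0. Vha55 was at 11.60 and 12.65 in small Pdf cells against 13.65, 12.86 and 13.20 in Elav cells (log2 difference -1.11, adjusted p = 0.178). Without adult Elav replicate 1 the count was 1.

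Between large and small Pdf cells, VhaM9.7-b was 3.32-fold higher in the large cells (log2 difference 1.73, SE 0.47, adjusted p = 0.0430), where 1.71% of all tested genes were called higher and 1.92% lower. The call did not hold without large Pdf replicate 1 (adjusted p = 0.108) or 3 (adjusted p = 0.111) or small Pdf replicate 1 (adjusted p = 0.0514) or 2 (adjusted p = 0.322). Vha16-1 was not called through the probe set used (0.37, adjusted p = 0.818). Its other probe set was at 14.10 ± 0.21 in large Pdf (SD, n = 3), 12.12 ± 0.84 in Elav (n = 3) and 11.11 ± 0.27 in small Pdf cells (n = 2), and was called in large against small cells (2.99, adjusted p = 0.00221) and against Elav cells (1.98, adjusted p = 0.00934). The 2 probe sets of Vha16-1 thus disagreed on the adult Pdf cells. The other one has the suffix for possible sharing between transcripts and the one used does not, and the part of this was not tested.

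**Figure D5:**
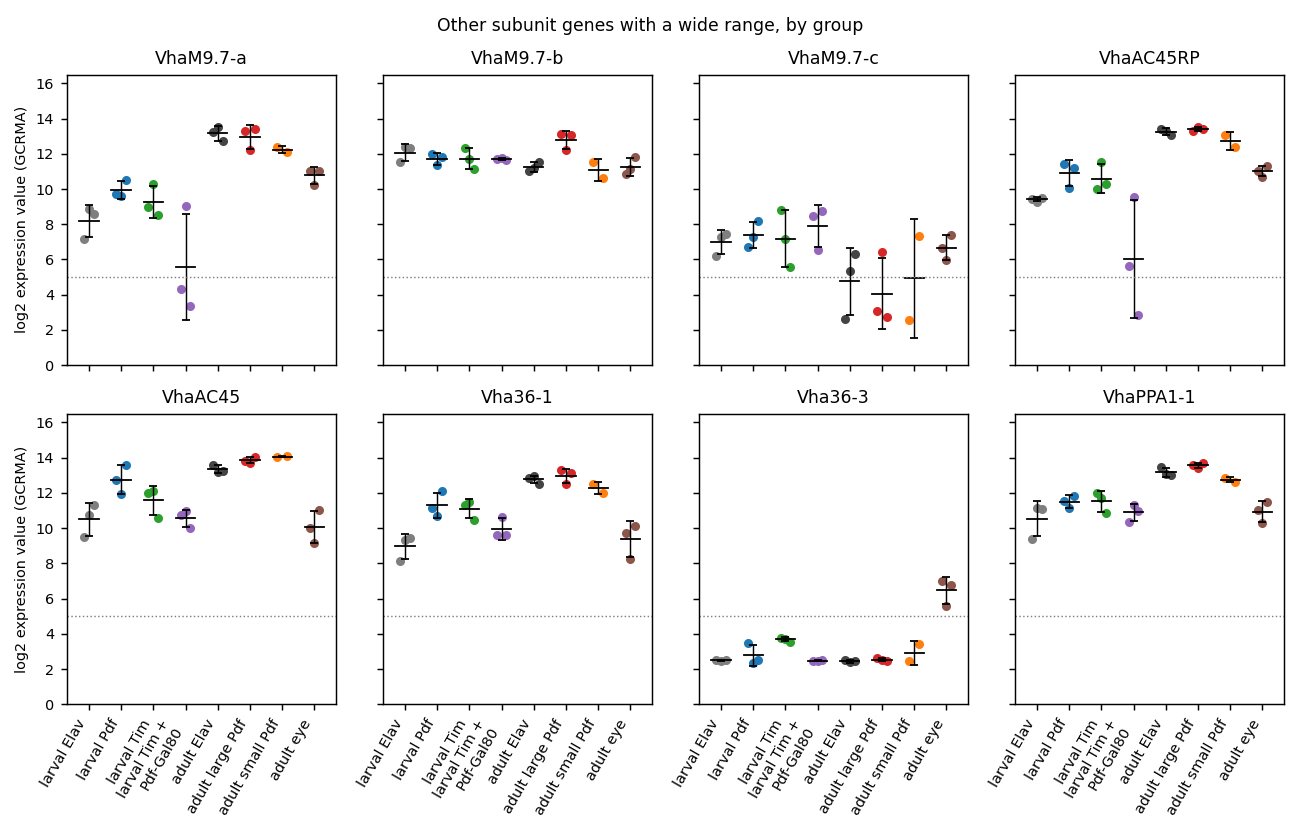
Log2 expression value of 8 further subunit genes in each group, with 1 point per array, a bar at the mean and whiskers of 1 SD; the dotted line is the limit of detection at 5. VhaM9.7-b has its highest mean in large Pdf cells, and Vha36-3 lies above 5 in the eye alone.

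The whole eye was compared with adult Elav cells. It had 8 subunit genes lower and 1 higher, where 25.5% of all tested genes were called lower and 14.4% higher. The single rise was Vha36-3, a D subunit gene, at 7.02, 5.60 and 6.79 in the eye. On the other 20 arrays it stayed between 2.37 and 3.78. It was higher than in Elav cells by at least 2.77-fold. Vha36-3 passed the filter through these 3 eye arrays alone, so its call is a description, also in the count above, and no p is given.

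Its widely expressed counterpart Vha36-1 was lower in the eye, at 9.75, 8.25 and 10.14, 10.4-fold lower than in Elav cells (log2 difference -3.38, SE 0.52, adjusted p = 4.35e-05). VhaAC45 was at 10.01, 9.18 and 11.01, 9.72-fold lower (adjusted p = 1.18e-04), and Vha100-1 7.48-fold lower (adjusted p = 4.68e-05). VhaPPA1-1 was at 11.01, 10.30 and 11.50, 4.70-fold lower (adjusted p = 8.99e-04). Vha14-1 was 3.99-fold, Vha13 3.24-fold, Vha26 2.21-fold and Vha16-1 2.15-fold lower. The eye and Elav arrays did not overlap for any of these 8, which were already picked by their difference. The share over all genes was not computed.

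VhaAC45RP, at 11.04, 10.70 and 11.28 in the eye, and VhaM9.7-a, at 11.05, 10.24 and 11.03, lay below all Elav arrays without being called (adjusted p = 0.0754 and 0.0519). Vha44, Vha55, VhaSFD, VhaAC39-1 and VhaM9.7-b were not called either, with differences between -0.54 and 0.11. For Vha44 the 95% interval ran from -0.91 to 1.13, and the eye arrays of VhaSFD (12.95, 12.71 and 12.94) lay below all Elav arrays.

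The median of all tested genes was itself -0.504 in the eye and -0.211 after another quantile normalisation, under which 6 subunit genes were lower and 1 higher. Relative to the shift of -0.504, the differences of Vha16-1 (-1.10) and Vha26 (-1.15) were smaller than 1 log2 unit, and these were the 2 not called then. Without eye replicate 2 neither was called (differences -0.78 and -0.99), and without adult Elav replicate 1 Vha16-1 was not called (adjusted p = 0.0997). The photoreceptor list (3 of 10 genes measured) stood at 14.4 to 14.79 in the eye and at most 3.24 in adult Elav cells, and the glial list at 7.22 to 7.93 against 3.70 to 4.03. The hemocyte list, with 4 of 7 members called higher and 1 lower, stood at 6.45 to 7.49 against 4.60 to 4.78. The fat body list (2 of 2 tested higher) stood at 6.99 to 8.99 against 3.52 to 5.79, and the pigment cell list (2 of 2 higher) at 6.55 to 7.45 against 2.70 to 3.03. The part of these cells in the differences was not tested.

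The Pdf enrichment in adults was tested against that in larvae as a difference of differences. VhaM9.7-b was called higher for large Pdf cells (1.91, SE 0.59, adjusted p = 0.0294) and 0 genes lower, where 6.84% of all tested genes were called higher and 10.9% lower. The difference was above 0 for 3 of the 19 genes, and their median was -1.10, against 0.035 over all tested genes. With values under 5 raised to 5 there were 1 higher and 4 lower, with array weights or no filter 1 and 3, and with quantile normalisation 1 and 2. For small Pdf cells 3 V1 genes were lower, where 5.71% were called higher and 9.61% lower, and the medians were -1.47 and 0.05. They were Vha36-1 (-2.84, SE 0.79, adjusted p = 0.0179), Vha26 (-1.48, SE 0.46, adjusted p = 0.0359) and Vha13 (-1.47, SE 0.47, adjusted p = 0.0401). Vha36-1 in small Pdf cells (12.50 and 12.02) was close to adult Elav cells, whereas the larval Pdf cells were above the larval Elav cells.

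Beside these, 5 of 6 neuron markers had a lower enrichment in adult than in larval Pdf cells in both tests. The part of the larval Elav reference in these differences was not tested. Leaving out any 1 of 7 arrays ended the call of VhaM9.7-b (adjusted p from 0.0540 to 0.0755), that of Vha26 (0.0574 to 0.104) and that of Vha13 (0.0646 to 0.134), and leaving out small Pdf replicate 2 ended that of Vha36-1 (0.0750).

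VhaM9.7-c, the narrow e subunit gene, was above 5 on every larval and eye array. It was at 6.20, 7.29 and 7.45 in larval Elav cells, 6.68, 7.30 and 8.16 in Pdf cells, 8.82, 7.14 and 5.58 in Tim cells, 8.44, 6.56 and 8.74 with Pdf-Gal80 and 6.66, 5.97 and 7.39 in the eye. The adult sorted cells were mixed, at 2.64, 5.33 and 6.33 in Elav, 3.08, 6.41 and 2.71 in large Pdf and 2.54 and 7.32 in small Pdf cells. It was called in no comparison of a pair of groups, and adult cells of 1 group differed from each other by more than 3 log2 units.

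Among the 8 groups all 19 tested genes differed by the F test, as did 80.7% of all tested genes, which adds nothing about the subunits. Across the 8 group means, Vha100-1 ran most like VhaPPA1-1 and Vha13 (Pearson r = 0.97 each) and Vha36-1 (r = 0.95). Its r with Vha100-2 was -0.91, with VhaM9.7-c -0.92 and with VhaM9.7-b 0.01. These values rest on 8 means that share the contrast of adult sorted cells with the rest, and are given as descriptions.

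Genes linked to the pump or to the compartments it acidifies were read from lists, whose counts are set beside the share of all tested genes called. Of 5 vesicular transporters, which use the proton gradient to load synaptic vesicles, 4 were tested and all 4 were higher in adult than in larval Elav cells (20.3% of all tested genes). Vmat, the vesicular monoamine transporter, was higher by at least 1281-fold and prt by at least 16.4-fold. In large Pdf cells 3 of the 4 were lower than in adult Elav cells (5.66%) and in small Pdf cells 2 (5.18%). Vmat was lower by at least 1281-fold in large and by 66.1-fold in small Pdf cells. In the eye 3 were lower (25.5%). In larvae 3 were higher in Pdf than in Elav cells (13.3%), and 2 each in Tim cells (13.8%) and in Tim cells with Pdf-Gal80 (14.7%).

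Of 12 genes listed under assembly and regulation of the pump, 9 were tested. That list holds Rag, Lamtor and Nprl genes, which are known for nutrient sensing at lysosomes and not as assembly factors of the pump. In adult against larval Elav cells 1 was higher and 2 lower, near the 20.3% and 23.4% of all tested genes. Nprl3 was higher by at least 6.06-fold, Lamtor4 3.18-fold lower and Mitf lower by at least 2.22-fold. Mitf, a transcription factor known to control V-ATPase genes in flies, was higher in the eye than in adult Elav cells by at least 2.86-fold (adjusted p = 0.00544). In the eye 2 of the 9 were higher and 2 lower (14.4% and 25.5%). The 2 lower genes were RagC-D, by 7.98-fold, and Nprl3, by 3.19-fold. With Pdf-Gal80, 1 gene was higher than in larval Elav cells (14.7%), and Pdf cells had 2 lower than those cells (7.56%). 
Of 18 genes listed for lysosomes, 13 were tested. That list holds Tpc1, which in flies is a mitochondrial carrier. In adult against larval Elav cells 5 were higher and 0 lower (20.3% and 23.4% of all tested genes), among them the sterol-binding Npc2a by at least 4.54 and Cln3 by at least 3.90 on the log2 scale. Tim cells with Pdf-Gal80 had 7 of 13 higher and 0 lower than larval Elav cells (14.7% and 25.4%), Tpc1 among them. Larval Pdf cells had 2 higher (13.3%) and Tim cells 3 (13.8%), with 0 lower in both. Pdf cells against Tim cells with Pdf-Gal80 had 1 higher and 5 lower (15.1% and 7.56%), Tpc1 again among the lower. In adults 1 was higher and 1 lower in large Pdf cells (3.40% and 5.66%), 1 was lower in small Pdf cells (5.18%), and in the eye 3 were higher and 1 lower (14.4% and 25.5%). A list for Malpighian tubule and gut, tissues rich in the pump, stood at 3.17 to 6.14 over all arrays, highest on an eye array.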

How the data were processed

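RNA of 8 groups was hybridised to 23 Affymetrix arrays, each of 1 colour and 1 sample. Per the labels' protocols, about 50 heads were dissected near Zeitgeber time 12 from flies in 12 h light and 12 h dark, and RNA of 0.1 to 0.4 ng went through amplification by T7 transcription in repeated rounds, which can favour 3' ends and differ between samples. The deposited values are log2 expression values, which the authors made with GCRMA per the submitters' processing notes. Version, settings and genome build were not given in the sources used here. Array medians ran from 2.90 to 3.31, and probe sets with no signal sit near 2 to 3 after GCRMA, so a limit of 5 was set. The number of arrays limits the precision.

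Of 18952 probe sets, 13647 had 1 gene in the platform annotation, 402 several and 4720 none, and 183 were controls. Per gene the probe set with the highest mean was used, giving 11982 genes, of which 7670 lay above 5 on at least 2 arrays. The 31 members had 32 probe sets, Vha16-1 having 2. With limma 3.58.1 in R 4.3.3, 1 model of the 8 group means with 15 residual degrees of freedom was fitted to the 23 arrays and moderated with eBayes, with two-sided tests and Benjamini-Hochberg adjustment over the 7670 genes. The model was tested on simulated data. Members were called wide, narrow or not detected from their group means. Values on every array were drawn in the figures for the 6 wide and 4 narrow members with the largest range and for members of the a subunit. The text prints part of these values. Called members were named up to 8 in each direction per comparison. Members and lists were chosen with earlier results of these data known. No batch or scan date was given in the labels. Alternatives were other limits, filters, normalisation, weights, probe sets, a replicate block, pairwise fits and leaving out each array.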

Additional observations from a re-analysis of the deposited data

Results flagged for a closer look

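Differences between the adult and the larval Pdf enrichment passed the interaction test for 4 subunit genes. VhaM9.7-b had a difference of 1.91 on the log2 scale for large Pdf cells, where 6.84% of all tested genes were called higher and 10.9% lower. For small Pdf cells Vha13 had -1.47, Vha26 -1.48 and Vha36-1 -2.84, where 5.71% were called higher and 9.61% lower. The calls of VhaM9.7-b, Vha13 and Vha26 were each lost on leaving out any 1 of 7 arrays. That of Vha36-1 was lost on leaving out 1 array. Both tests share the larval Pdf, larval Elav and adult Elav arrays.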

How the results depend on the processing

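Of 47 calls of a subunit gene in a comparison, 23 held under every alternative run for them. The 47 include the calls of Vha100-4 and of Vha36-3 in the eye, which are descriptions. Over 635 values under alternatives, 539 kept direction and call, 95 lost the call and 1 reversed, Vha16-1 in larval Pdf against Tim cells with Pdf-Gal80, at -0.37 with its other probe set. For the counts of subunit genes called, larval Tim against Elav cells gave 1 with values under 5 raised to 5 and 9 with array weights. The difference between large Pdf and larval Pdf enrichment gave 5 with values raised to 5, 4 with no filter on dim probe sets, 3 with quantile normalisation, 4 with array weights, 2 with the mean of all probe sets of a gene and 2 when only the groups compared were fitted. Large against small Pdf cells gave 2 with the mean of probe sets, and large Pdf against Elav and against small Pdf cells gave 2 each with the other probe set of Vha16-1. Fits of only the groups compared gave 3 for larval Pdf against Elav, 1 for Tim cells with Pdf-Gal80 against Elav, and 0 each for larval Pdf against Tim cells with Pdf-Gal80, large Pdf against Elav and large against small Pdf cells. Such fits have fewer samples; the cause of the other changes was not tested.

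Leaving out each replicate in turn gave 14 to 15 calls for adult against larval Elav cells, 7 to 10 for the eye, 4 to 6 for larval Pdf and 2 to 3 for larval Tim against Elav, 1 to 4 for Tim cells with Pdf-Gal80 against Elav, 3 to 7 for larval Pdf against Tim cells with Pdf-Gal80, 0 to 1 for large Pdf against Elav, small Pdf against Elav and large against small Pdf cells, 0 to 2 and 0 to 4 for the large and small enrichment differences, and 17 to 19 for the F test.

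Taken over all groups together, same replicate numbers gave no sign of paired samples. A mean over all pairs cannot settle this for single pairs of groups. The deviations of same-numbered arrays had a mean r of -0.021 over 77 pairs, against 0.010 over 154 pairs with different numbers. With a replicate block, large against small Pdf cells gave 0 subunit genes called (VhaM9.7-b, adjusted p = 0.0725), and Vha26 lost its call in the small enrichment difference (adjusted p = 0.0515).

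Over all tested genes, array weights moved the calls of larval Tim against Elav from 1795 to 3402. Fits of only the groups compared moved larval Pdf against Elav from 1996 to 1173, larval Pdf against Tim cells with Pdf-Gal80 from 1740 to 868, large Pdf against Elav from 695 to 426, small Pdf against Elav from 671 to 352 and large against small Pdf from 278 to 19. Without larval Elav replicate 2 the 1996 became 1294, without Pdf-Gal80 replicate 3 the 1740 became 1145, and without small Pdf replicate 1 the 671 became 408. Quantile normalisation moved the share of calls that were higher from 36.6% to 46.9% for Tim cells with Pdf-Gal80 against Elav, 66.7% to 50.7% for larval Pdf against those cells, 37.6% to 48.5% for large Pdf and 36.1% to 46.3% for the eye against Elav. Signal near background limits the narrow genes, above all Vha100-4 and Vha36-3.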
